A study of Homo sapiens with 8 samples.

Results

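The genes of the BRCA and Fanconi anemia repair pathway were examined in U2OS cells, a human osteosarcoma cell line, after depletion of CHERP, a nuclear protein that binds the U2 small nuclear ribonucleoprotein of the spliceosome. The members are BRCA1, BRCA2, BARD1, PALB2, BRIP1, RAD51C, FANCA, FANCD2 and FANCI, 9 of the 12067 genes with an alternative splicing event in the tables. They were chosen by their symbols, with earlier results of these data known. Cells received 20 nM of an siRNA against EGFP, which has no human target, or of CHERP #2, a single siRNA against CHERP, and poly(A) RNA was sequenced 48 h later. Each siRNA has 2 libraries of whole-cell RNA and 2 of cytoplasmic RNA, described as biological replicates, so the 8 libraries form 4 groups. The members hold 198 of the 89379 events of the whole-cell tables and 72 of the 43559 events of the cytoplasmic tables, where BRCA2 has none.

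Homologous recombination repairs a broken chromosome by copying the sister chromatid. BRCA1 and its partner BARD1 form a ubiquitin ligase that acts at the break, PALB2 bridges BRCA1 to BRCA2, and BRCA2 acts on the single-stranded DNA that forms there, while RAD51C also acts in homologous recombination and BRIP1 is a helicase that binds BRCA1. The Fanconi anemia pathway removes crosslinks between the DNA strands: a core complex that contains FANCA places ubiquitin on the FANCD2 and FANCI pair, and the repair then uses the recombination proteins. Many of these genes are transcribed mainly in proliferating cells.

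Abundance and inclusion level were derived from the event tables, which give for each library the reads of the inclusion form and of the skipping form of every event. The abundance of a gene is the sum, over its skipped exon and alternative splice site events, of reads per base of effective length, scaled between the libraries of a fraction. Since it depends on how many events a gene has, it was compared between libraries and not between genes. The inclusion level of an event runs from 0 to 1 and weighs the inclusion form against both forms, each divided by its effective length. The whole-cell libraries held between 29409956 and 35664568 event reads and the cytoplasmic libraries between 5370756 and 6580099, so that values from the cytoplasm rest on fewer reads. Of 13 osteoblast and mesenchymal markers 6 had events in whole cells and 7 in the cytoplasm. VIM and FN1 gave most of their reads, the bone genes SPARC, COL1A1, COL1A2, IBSP, BGLAP and SP7 had no event in either fraction, and the counts of the others went in both directions. In whole cells RUNX2 had 16 and 18 reads in the control libraries against 0 and 3 after CHERP depletion, SPP1 174 and 355 against 2203 and 1549, and COL5A1 52 and 50 against 144 and 117. ALPL had reads in the cytoplasm alone, 2 and 11 against 43 and 32. No event was listed for the blood, endothelial and hepatocyte markers, and of the epithelial markers CDH1 alone had reads, 1 and 1 against 22 and 15 in whole cells.

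CHERP itself gave 103 and 77 event reads in the whole-cell libraries in the control libraries and 3 and 10 in the CHERP libraries. Its abundance was 9.08% of the control (log2 difference −3.46 ± 0.61 SE, limma adjusted p = 0.0215). In the cytoplasm the reads were 31 and 21 against 3 and 4, below the filter for testing. The target was therefore low in every library labelled with its siRNA.

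The 4 exons followed in the results below, of which BRIP1 exon 5 did not pass, are shown here with 30 intron bases before and 10 after. They lie wholly in coding sequence, coordinates are of hg19, and capitals mark the exon. RAD51C exon 2 (chr17:56772292-56772550, plus strand, 259 bases) and exon 7 (chr17:56801401-56801461, plus strand, 61 bases), BRCA2 exon 3 (chr13:32893214-32893462, plus strand, 249 bases) and BRIP1 exon 5 (chr17:59926490-59926617, minus strand, 128 bases) are numbered as in the GENCODE 44 canonical transcripts.
RAD51C exon 2: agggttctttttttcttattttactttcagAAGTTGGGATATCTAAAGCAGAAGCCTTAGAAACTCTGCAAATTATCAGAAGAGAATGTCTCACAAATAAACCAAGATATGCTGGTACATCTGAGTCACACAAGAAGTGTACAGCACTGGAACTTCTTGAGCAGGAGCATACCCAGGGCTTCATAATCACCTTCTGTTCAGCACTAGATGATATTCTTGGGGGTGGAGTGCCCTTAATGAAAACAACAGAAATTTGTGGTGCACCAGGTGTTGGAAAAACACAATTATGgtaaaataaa
RAD51C exon 7: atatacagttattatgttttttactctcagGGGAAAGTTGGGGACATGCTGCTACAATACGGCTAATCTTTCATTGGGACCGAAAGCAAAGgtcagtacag
BRCA2 exon 3: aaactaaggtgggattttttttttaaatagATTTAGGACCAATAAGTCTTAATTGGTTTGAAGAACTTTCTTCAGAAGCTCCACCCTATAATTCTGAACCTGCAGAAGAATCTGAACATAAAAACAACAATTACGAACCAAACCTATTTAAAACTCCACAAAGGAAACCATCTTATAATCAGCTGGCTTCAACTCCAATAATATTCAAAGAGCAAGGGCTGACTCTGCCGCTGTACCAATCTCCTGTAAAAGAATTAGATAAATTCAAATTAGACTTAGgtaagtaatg
BRIP1 exon 5: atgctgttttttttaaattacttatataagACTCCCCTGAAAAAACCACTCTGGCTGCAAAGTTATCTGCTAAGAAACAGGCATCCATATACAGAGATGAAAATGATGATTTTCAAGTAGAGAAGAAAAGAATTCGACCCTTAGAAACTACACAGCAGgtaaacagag
The length of BRCA2 exon 3 is a multiple of 3, so its loss would keep the reading frame, whereas the other three lengths are not. The GC content was 41.3% for RAD51C exon 2, 47.5% for RAD51C exon 7, 35.3% for BRCA2 exon 3 and 39.1% for BRIP1 exon 5. Of the 30 bases before the exon, 14 were pyrimidines at BRCA2 exon 3, 18 at BRIP1 exon 5, 19 at RAD51C exon 7 and 22 at RAD51C exon 2.

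In whole cells 6 of the 9 members fell after CHERP depletion and 1 rose, where 13.7% of all 9660 genes tested fell and 13.3% rose. BRCA1, BRCA2, BARD1, BRIP1, FANCD2 and FANCI fell, RAD51C rose, and PALB2 and FANCA did not pass the test. When either CHERP library was left out, fewer members passed in whole cells and RAD51C did not. The counts over all genes fell as well. In the cytoplasm 6 members had enough reads, and BRCA1, BRIP1, FANCD2 and FANCI fell while RAD51C rose, where 19.9% of 7293 genes fell and 19.1% rose. The median log2 difference of the members was −0.87 in whole cells and −0.97 in the cytoplasm, beside 0.0055 and −0.0082 over all genes tested. Scaling by library totals would raise the share of lower genes among all calls in the cytoplasm from 51.0% to 61.7%, with the same numbers of members called in each direction. These are bulk samples, in which fewer cells that express a gene and less RNA of it per cell cannot be told apart.

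**Figure D1:**
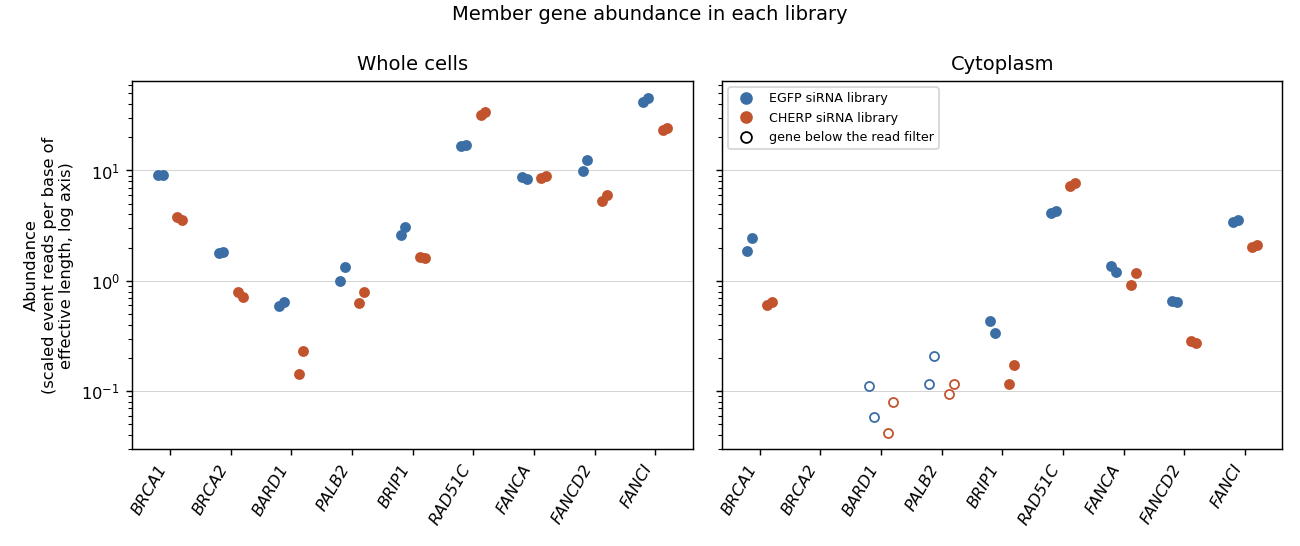
Abundance of each member in each library, in scaled event reads per base of effective length on a log axis, with EGFP siRNA in blue and CHERP siRNA in orange, and open points for genes below the read filter. In whole cells the CHERP siRNA points of RAD51C, at 32.0 and 33.8, lie above the control points, those of FANCA lie among them, and those of the other 7 members lie below.

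Of the genes that act at the break, BRCA1 (chr17:41196312-41322262, minus strand) measured 9.13 and 9.18 reads per base in the control libraries and 3.80 and 3.54 in the CHERP libraries in whole cells. The groups did not overlap and the abundance was 40.1% of the control (log2 difference −1.32 ± 0.13 SE, limma adjusted p = 0.00820). In the cytoplasm it was 1.86 and 2.44 against 0.598 and 0.646 (log2 difference −1.76 ± 0.17, limma adjusted p = 0.00476). BRCA1 was thus lower in every CHERP library of both fractions, and 3.67% of genes in whole cells and 1.18% in the cytoplasm had a lower log2 difference. Its partner BARD1 (chr2:215590370-215674407, minus strand) measured 0.592 and 0.649 against 0.142 and 0.231 in whole cells, 30.4% of the control (log2 difference −1.72 ± 0.25, limma adjusted p = 0.0151). In whole cells the lowest fold of the members was that of BARD1, on 100 and 128 reads in the control libraries and 29 and 42 in the CHERP libraries. In the cytoplasm BARD1 had 18 and 11 reads against 9 and 11, too few to be tested, and the libraries of the groups overlapped.

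BRCA2 (chr13:32889223-32974405, plus strand), which acts on single-stranded DNA in recombination, measured 1.78 and 1.82 reads per base with EGFP siRNA against 0.795 and 0.713 with CHERP siRNA in whole cells. Its abundance was 42.1% of the control (log2 difference −1.25 ± 0.13 SE, limma adjusted p = 0.00884). PALB2 (chr16:23614481-23652642, minus strand), the bridge between BRCA1 and BRCA2, measured 1.00 and 1.34 against 0.634 and 0.794, a log2 difference of −0.70 ± 0.21 with a limma adjusted p of 0.0699. All CHERP values of PALB2 in whole cells lay below all control values, as for 35.1% of genes tested, but the difference did not pass the test. Over the alternatives, libraries left out included, its limma adjusted p ran from 0.0342 to 0.297, on both sides of the threshold. In the cytoplasm PALB2 had 13 and 22 reads against 11 and 14 and was not tested.

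BRIP1 (chr17:59756500-59940920, minus strand), the helicase partner of BRCA1, measured 2.60 and 3.07 reads per base in the control libraries and 1.64 and 1.62 in the CHERP libraries in whole cells (log2 difference −0.79 ± 0.14, limma adjusted p = 0.0234). In the cytoplasm it measured 0.429 and 0.337 against 0.117 and 0.174 (log2 difference −1.36 ± 0.23, limma adjusted p = 0.0149). BRIP1 fell in both fractions, to 57.8% of the control in whole cells and 39.1% in the cytoplasm. With 1 library left out its log2 difference ran from −0.92 to −0.67 in whole cells and from −1.61 to −1.07 in the cytoplasm. The BRIP1 call was lost in whole cells when either CHERP library was left out. In the cytoplasm it was lost without the first EGFP library. Without a read filter BRIP1 missed the threshold in both fractions (limma adjusted p = 0.0522 and 0.052). RAD51C (chr17:56769934-56812972, plus strand), which also acts in recombination, went the other way: it measured 16.8 and 17 against 32.0 and 33.8 in whole cells, a rise to 1.94 times the control (log2 difference 0.96 ± 0.12, limma adjusted p = 0.0121). In the cytoplasm it measured 4.09 and 4.26 against 7.29 and 7.74 (log2 difference 0.85 ± 0.11, limma adjusted p = 0.00781). RAD51C was the only member that rose, and 93.5% of genes in whole cells and 91.6% in the cytoplasm had a lower log2 difference.

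In the Fanconi anemia pathway the ubiquitinated pair fell and the core complex gene did not pass the test. FANCD2 (chr3:10068054-10143616, plus strand) measured 9.80 and 12.4 reads per base against 5.32 and 5.94 in whole cells, and 0.654 and 0.644 against 0.283 and 0.274 in the cytoplasm. Its log2 differences were −0.97 ± 0.17 (limma adjusted p = 0.0220) and −1.19 ± 0.10 (limma adjusted p = 0.00421). In whole cells the FANCD2 call was lost when either CHERP library was left out, with log2 differences of −0.88 and −1.04. FANCI (chr15:89787176-89860492, plus strand) measured 41.6 and 45.6 against 23.4 and 24.4 in whole cells, and 3.41 and 3.59 against 2.04 and 2.10 in the cytoplasm. Its log2 differences were −0.87 ± 0.13 (limma adjusted p = 0.0154) and −0.75 ± 0.10 (limma adjusted p = 0.00955), so that in whole cells FANCD2 was at 51.0% and FANCI at 54.8% of the control. FANCA (chr16:89793091-89883385, minus strand) measured 8.76 and 8.31 against 8.50 and 8.92 in whole cells, where the groups overlapped, with a log2 difference of 0.03 and an interval from −0.30 to 0.36 (limma adjusted p = 0.877), which became −0.01 with scaling by library totals. In the cytoplasm FANCA measured 1.36 and 1.21 against 0.922 and 1.18 (log2 difference −0.30, interval from −0.73 to 0.13, limma adjusted p = 0.200). BRCA1 and FANCD2 have pseudogene copies in the genome, and how reads that match both were assigned is not given in the sources used here.

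**Figure D2:**
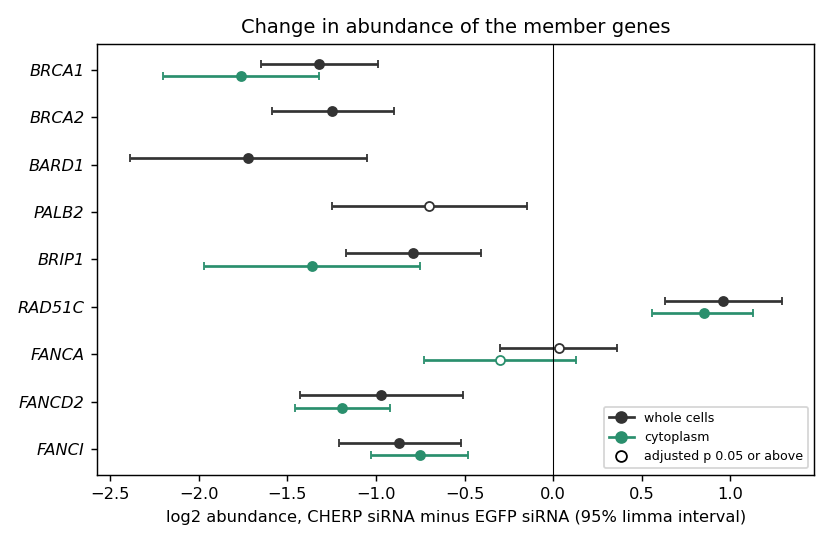
Log2 difference in abundance of each member with enough reads to be tested, CHERP siRNA minus EGFP siRNA, with its 95% limma interval, in whole cells (dark) and the cytoplasm (green), filled where the adjusted p is under 0.05. Every interval shown lies below 0 except those of RAD51C, above 0 in both fractions, and of FANCA, which span 0.

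A difference in change between the fractions did not pass for any of the 6 members tested in both, by a limma interaction term that called 0 of 7059 genes, with 389 at an unadjusted p under 0.05. The effect in the cytoplasm minus that in whole cells was −0.44 ± 0.21 on the log2 scale for BRCA1 (limma adjusted p = 0.895) and −0.57 ± 0.29 for BRIP1 (limma adjusted p = 0.909). The other four lay between −0.33 for FANCA and 0.11 for FANCI. These values did not pass the test, which does not show that the fractions were alike.

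The deposited table of cytoplasmic expression lists condition means under the names C1 and C2, without naming the siRNA, for the 6757 genes that passed the authors' own test. CHERP had authors' means of 209 in C1 and 1685 in C2. Of the 8 members listed, 7 had the lower mean in C1, as did 41.8% of all genes listed. BRCA1 had 493 and 1428, BRCA2 111 and 337, BARD1 157 and 299, PALB2 270 and 385, BRIP1 192 and 404, FANCD2 367 and 725, and FANCI 1666 and 2812, in C1 and C2. RAD51C had the higher mean in C1, 1369 against 931, and FANCA was not listed. The order of the means was thus the same as that of CHERP for every listed member but RAD51C, and BRCA2, BARD1 and PALB2, which the event reads could not test in the cytoplasm, are among them.

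RAD51C held the member events that passed the splicing test. In whole cells 2 of the 198 member events passed, a share near the 1.12% of all events that did, and both were in RAD51C. At an unadjusted p under 0.05 there were 17, of which 9 were in FANCI, and the share over all events was not computed. In the cytoplasm 0 of 72 passed the quasi-binomial test, where 0.413% of all events did, with 2 at an unadjusted p under 0.05. The members' events were mostly skipped exons, 142 in whole cells and 50 in the cytoplasm, followed by 40 and 11 pairs of mutually exclusive exons. A retained intron was tabled for FANCI alone, with inclusion levels of 0.205 and 0.253 against 0.266 and 0.289 in whole cells (adjusted p = 0.676).

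The first RAD51C event sets exon 2 against exon 4, between exon 1 and exon 5. Exon 2 had 482 and 633 reads in the control libraries and 627 and 641 in the CHERP libraries, while exon 4 had 120 and 132 against 318 and 328. The inclusion level of exon 2 was 0.735 and 0.768 against 0.576 and 0.574. The share of counted reads thus moved toward exon 4 (adjusted p = 1.86e-08, where 1.60% of such pairs passed). The counts include reads within the exons, and the canonical transcript holds both exons, so transcripts with both can add reads to each side. The level therefore need not measure a choice between the exons, which was not tested. The cytoplasmic tables list no such pair. The call held without each library in turn and was lost in limma on the log2 odds (adjusted p = 0.368).

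The second event is the skipping of RAD51C exon 7, printed above, whose length is not a multiple of 3. In whole cells the inclusion form had 129 and 148 reads in the control libraries and 388 and 351 in the CHERP libraries, and the skipping form 21 and 37 against 22 and 24. The inclusion level rose from 0.775 ± 0.0526 to 0.918 ± 0.00991 (SD of 2 libraries each, quasi-binomial adjusted p = 0.0384, where 0.893% of skipped exon events passed). The cytoplasm had the same event with inclusion levels of 0.774 and 0.800 against 0.951 and 0.943, on skipping reads of 10 and 11 against 6 and 6. In the cytoplasm the event did not pass (quasi-binomial adjusted p = 0.295). It passed there when the dispersion was taken from events whose rarer form had 10 reads or more (adjusted p = 0.00971). A pair of exon 6 against exon 7 in the cytoplasm had levels of 0.540 and 0.455 against 0.314 and 0.332 (adjusted p = 0.132) and shares reads with the skipping event. In whole cells the call of exon 7 was lost without the second EGFP library (adjusted p = 0.915), without the first CHERP library (0.62) and without the second CHERP library (0.274), and in limma on the log2 odds (0.675).

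**Figure D3:**
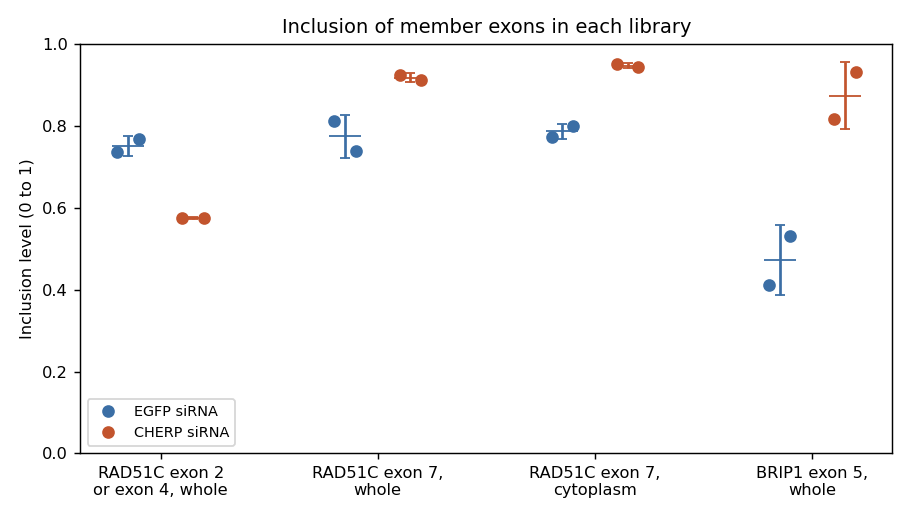
Inclusion level, from 0 to 1, of RAD51C exon 2 against exon 4, of RAD51C exon 7 in each fraction and of BRIP1 exon 5, with a point for each library and the mean and SD of each group. The CHERP libraries lie below the EGFP libraries at RAD51C exon 2, at 0.576 and 0.574, and above them at the other exons.

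BRIP1 exon 5 came next to the threshold. Its inclusion form had 33 and 71 reads in the control libraries and 42 and 52 in the CHERP libraries in whole cells, and its skipping form 25 and 33 against 5 and 2. The inclusion level was 0.411 and 0.532 against 0.816 and 0.932 (adjusted p = 0.0514). The difference passed under 3 alternatives, with adjusted p-values of 0.0445 with one adjustment over all event types, 0.0405 with a minimum of 50 reads and 0.00909 with the other dispersion trend, and the remaining alternatives gave between 0.0521 and 0.951.

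The event with the smallest p among those with enough reads of the rarer form did not pass in any of 5 other members. In FANCI exon 23 against exon 24 had levels of 0.490 and 0.5 against 0.556 and 0.576 (adjusted p = 0.273), and in FANCA exon 31 against exon 32 had 0.443 and 0.473 against 0.343 and 0.260 (adjusted p = 0.455). In BRCA1 exon 7 against the long exon 10 had 0.174 and 0.0896 against 0.177 and 0.272 (adjusted p = 0.539). In BRCA2 exon 18 against exon 19 had 0.517 and 0.546 against 0.325 and 0.412 (adjusted p = 0.624), and in FANCD2 exon 3 against exon 4 had 0.724 and 0.775 against 0.788 and 0.859 (adjusted p = 0.776). BARD1 and PALB2 had no event with enough reads of the rarer form: PALB2 exon 12, for example, had 61 and 76 inclusion reads against 37 and 53 and skipping reads of 7 and 3 against 5 and 5. In the event chosen, a donor inside BRCA1 exon 10, which leaves 117 bases of that exon, had 0 and 0 reads in the control libraries and 3 and 2 in the CHERP libraries (quasi-binomial adjusted p = 0.305). In a pair with exon 9 the same 117 bases had 2 and 0 reads against 6 and 3 (quasi-binomial adjusted p = 0.308). The form was therefore not absent from the control libraries. Of 62 member events present in both fractions, 0 passed the quasi-binomial interaction of siRNA and fraction, where 0.0327% of all events passed, and 1 had an unadjusted p under 0.05.

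An event compares forms at one place, so the reads of each exon were also followed along the genes. For every exon the inclusion reads of its most-read event were scaled between libraries, and limma diffSplice tested whether the change of an exon differed from that of the other exons of its gene. This test was added after the exon values had been seen. Of 87 member exons tested in whole cells 2 passed, RAD51C exon 2 and BRCA2 exon 3, where 0.774% of 32558 exons did. Of 27 member exons tested in the cytoplasm 2 passed, RAD51C exons 2 and 7, where 0.789% of 12043 exons did.

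RAD51C exon 2 rose less than the rest of its gene in both fractions. In whole cells it had 630 and 789 inclusion reads in the control libraries and 941 and 916 in the CHERP libraries, a scaled ratio of 1.25, while exon 3 had a ratio of 2.13, exon 4 of 2.41, exon 5 of 2.18, exon 6 of 2.46, exon 7 of 2.54 and exon 8 of 2.53. Its difference from the gene was −0.89 ± 0.11 on the log2 scale (limma adjusted p = 1.35e-05). In the cytoplasm exon 2 had 300 and 247 reads against 339 and 328, a ratio of 1.17, beside 2.00 for exon 3 and 2.20 for exon 4 (log2 difference from the gene −0.73 ± 0.13, limma adjusted p = 0.00201). Both values describe the same exon that the pair of exons 2 and 4 used, so they are not separate evidence for that event. The whole-cell call was lost without the first CHERP library (−0.91) or the second (−0.86), when most calls over all exons were lost too. The cytoplasmic call was lost without the first EGFP library (−0.53) or the first CHERP library (−0.64), when the calls over all exons also fell. It was also lost without the voom weights (limma adjusted p = 0.119). A further segment of RAD51C, chr17:56783239-56783383, which is no exon of the canonical transcript, had 19 and 24 reads against 22 and 15 in whole cells, a ratio of 0.819, and did not pass (log2 difference from the gene −1.35 ± 0.35, limma adjusted p = 0.0765). GENCODE annotates a short coding transcript, RAD51C-203, of 2 exons, whose last exon starts where exon 2 does and runs 147 bases past its end, to chr17:56772697. Reads within exon 2 could come from either transcript and cannot be divided between them here.

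RAD51C exon 7 rose more than the rest of its gene in the cytoplasm, from 63 and 81 inclusion reads to 212 and 182, a scaled ratio of 2.63 (log2 difference from the gene 0.86 ± 0.16, limma adjusted p = 0.00522). Its neighbours exon 6, with 38 and 34 against 45 and 42 reads, and exon 8, with 27 and 25 against 37 and 27, had ratios of 1.16 and 1.17 there. The cytoplasmic call was lost without the first EGFP library (0.64), the first CHERP library (0.81) or the second (0.87). The calls over all exons fell in each of these as well. In whole cells exon 7 differed from the gene by 0.35 ± 0.14 (limma adjusted p = 0.530). Since the tables of the fractions were made separately, the neighbours are counted from different events in each.

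BRCA2 exon 3 fell more than the rest of its gene. It had 68 and 70 inclusion reads in the control libraries and 5 and 7 in the CHERP libraries in whole cells, a scaled ratio of 0.0830, with skipping reads of 1 and 0 against 0 and 0. Exon 5 had 35 and 33 reads against 7 and 9, a ratio of 0.224, and the ratios of exons 12, 17, 18 and 19 were 0.424, 0.503, 0.333 and 0.494. The difference of exon 3 from the gene was −2.22 ± 0.45 on the log2 scale (limma adjusted p = 0.0146). The call was lost without the first CHERP library (−1.84) and without the second (−2.60), when most calls over all exons were lost too. The exon lies under a filter of 50 inclusion reads.

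**Figure D4:**
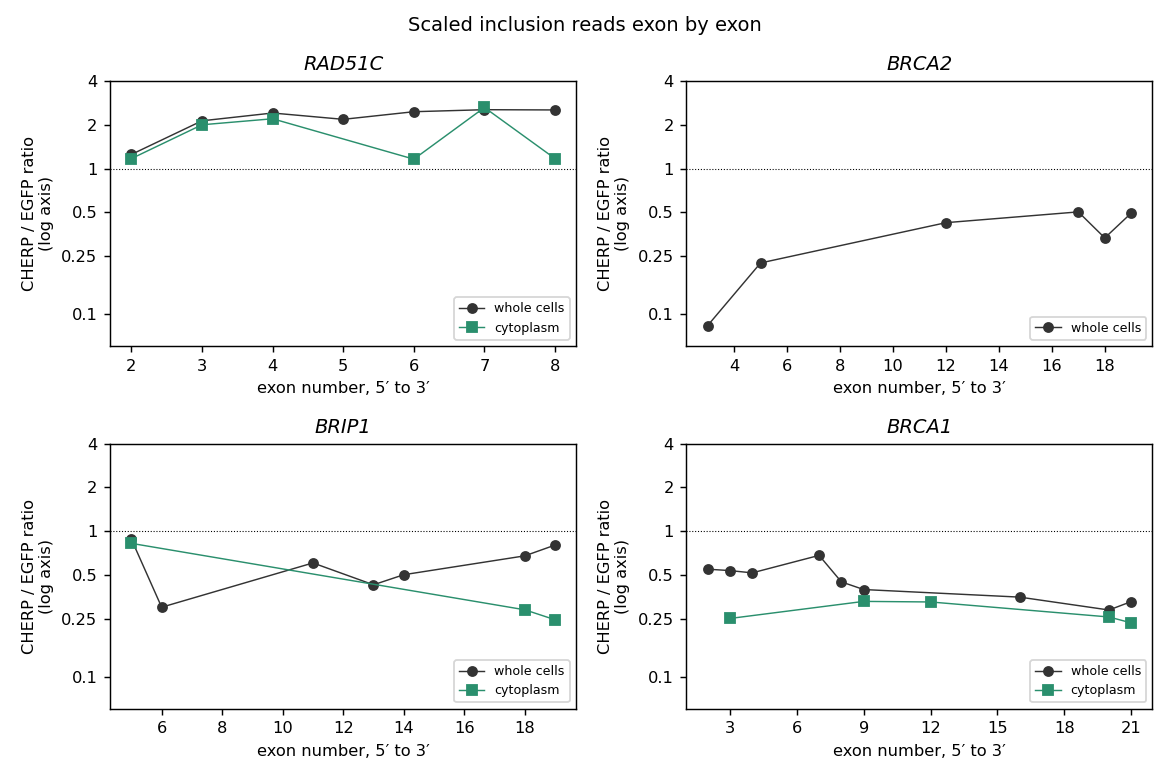
Ratio of scaled inclusion reads, CHERP siRNA over EGFP siRNA, on a log axis, for each numbered exon of the canonical transcript with at least 40 reads in all, in order along 4 members, for whole cells (dark circles) and the cytoplasm (green squares). The numbered exons of RAD51C start at 1.25 in exon 2 and then stay at 2.13 or above in whole cells, and BRCA2 starts at 0.0830 in exon 3.

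No tested exon of the other members passed. BARD1 had no exon tested, and PALB2 had exons tested in whole cells alone. Over the numbered exons with at least 40 reads in whole cells the ratios of BRCA1 ran from 0.682 at exon 7 to 0.287 at exon 20, those of BRIP1 from 0.300 at exon 6 to 0.881 at exon 5, those of FANCI from 0.448 to 0.647, those of FANCD2 from 0.394 to 0.626, those of PALB2 from 0.579 to 0.631 and those of FANCA from 0.774 to 1.5. BRCA1 exon 20 differed from its gene by −0.63 ± 0.27 (limma adjusted p = 0.585) and BRIP1 exon 6 by −1.12 ± 0.39 (limma adjusted p = 0.342). Every such exon lay below 1 for FANCD2, FANCI and PALB2, on 18, 14 and 4 exons. The same held for BRCA1, BRIP1 and BRCA2, on 9, 7 and 6 exons, and for the 1 exon of BARD1. Segments of FANCI outside the numbered exons, with as many reads, had ratios from 0.266 at chr15:89788987-89789070 to 0.768 at chr15:89788426-89788542.

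None of the 5 other lists held a gene that rose, although 1 damage signalling gene passed as higher in each fraction with a pseudocount of 0.1. Of the other Fanconi and homologous recombination genes 13 of 32 fell in whole cells (40.6%, beside 13.7% of all genes) and 14 of 25 in the cytoplasm (56.0%, beside 19.9%), and the median log2 difference was −0.62 in each. FANCG and FANCE, of the core complex, changed by −1.52 ± 0.14 and −1.48 ± 0.20 in whole cells and by −1.53 ± 0.14 and −1.87 ± 0.17 in the cytoplasm (limma adjusted p between 0.00437 and 0.0130). RBBP8, which starts the resection of DNA ends, changed by −1.45 ± 0.14 in whole cells (limma adjusted p = 0.00835), and BLM, a helicase that dissolves joined molecules, by −1.47 ± 0.27 in the cytoplasm (limma adjusted p = 0.0177). FAN1, RAD54L, FAM175A, WDR48, NBN and SHFM1 had log2 differences between 0.03 and 0.33 in whole cells and did not pass.

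Of the damage signalling genes 3 of 16 fell in whole cells, 18.8% and near the 13.7% of all genes, and 6 of 13 in the cytoplasm, 46.2% beside 19.9%, with medians of −0.40 and −0.77. CLSPN, TOPBP1 and CHEK1, which act in the replication checkpoint, changed by −1.97 ± 0.16, −1.52 ± 0.14 and −1.11 ± 0.12 in whole cells and by −2.12 ± 0.18, −1.68 ± 0.10 and −1.21 ± 0.13 in the cytoplasm, all past the limma test. ATR, a kinase of the same checkpoint, had a log2 difference of 0.53 in whole cells (limma adjusted p = 0.0713). Of the end joining genes 2 of 10 fell in whole cells, 20.0% and also near the share of all genes, POLQ by −1.06 ± 0.13 and XRCC1 by −0.77 ± 0.17, and 4 of 7 in the cytoplasm (57.1%), among them XRCC1 (−1.12 ± 0.17), POLQ (−0.99 ± 0.18) and PRKDC (−0.55 ± 0.10), with medians of −0.22 and −0.38.

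Nearly all genes of the cell cycle lists fell. Of the G1/S genes 17 of 18 fell in whole cells and 17 of 17 in the cytoplasm, with medians of −1.37 and −1.31, led in whole cells by RRM2 (−2.15 ± 0.15), which makes deoxynucleotides, and by MCM6 (−2.11 ± 0.15) and MCM2 (−1.94 ± 0.18) of the replicative helicase, and in the cytoplasm by MCM6 (−2.12 ± 0.12), RRM2 (−1.95 ± 0.12) and the histone mRNA binder SLBP (−1.86 ± 0.12). Of the G2/M genes 21 of 22 fell in whole cells and 17 of 17 in the cytoplasm, with medians of −1.19 and −1.22, led by the mitotic kinesins KIF20A (−2.14 ± 0.14 in whole cells, −2.08 ± 0.18 in the cytoplasm) and CENPE (−2.07 ± 0.18 and −1.82 ± 0.46) and by the topoisomerase TOP2A (−1.78 ± 0.13 and −1.99 ± 0.14). With 1 CHERP library left out the whole-cell counts of both lists reached lower values, and the counts over all genes fell as well. The members that fell therefore moved with genes of replication and mitosis, and the part of the cell cycle in their change was not tested.

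**Figure D5:**
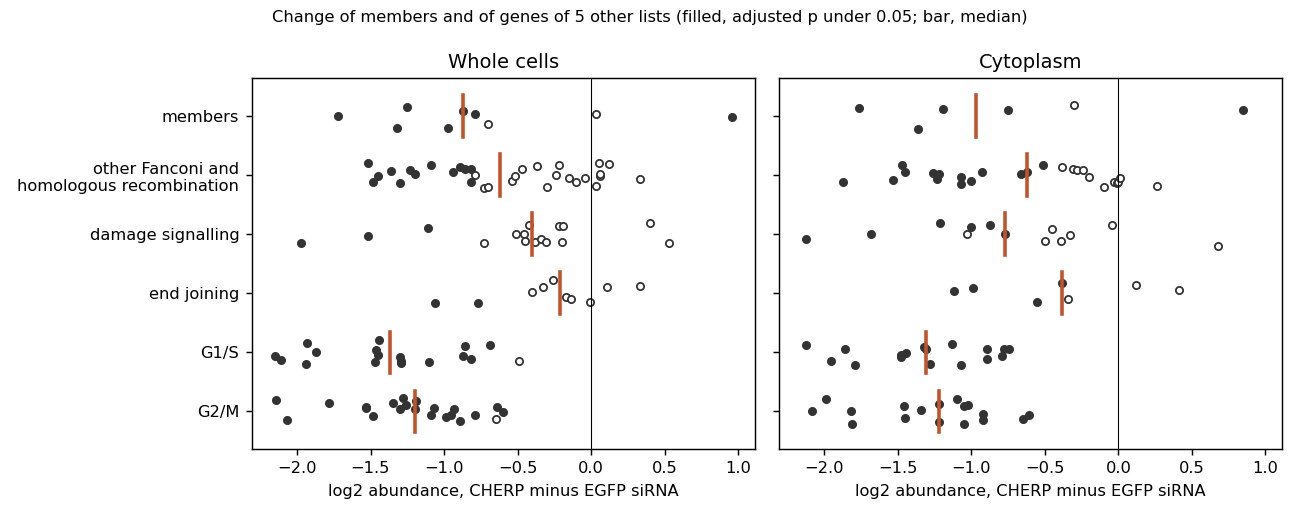
Log2 difference in abundance of each gene tested, CHERP siRNA minus EGFP siRNA, for the members and the 5 other lists, filled where the adjusted p is under 0.05, with a bar at the median of each list. The G1/S and G2/M genes lie below 0 in both fractions, and RAD51C, at 0.96 and 0.85, is the only filled point above 0.

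The genes whose abundance was most like the mean of the members over the 8 libraries, after the mean of each fraction was taken out, were DNMT3B (Pearson r = 0.999), a DNA methyltransferase, HLTF (0.998), a factor of replication fork repair, CDC23 (0.997), a subunit of the anaphase-promoting complex, THOC1 (0.997), of the mRNA export complex THO, and CCDC117 (0.997). The mean used the 6 members tested in both fractions, RAD51C included, and 591 of 7053 genes had an r above 0.95, so a high r was common: the libraries share the siRNA contrast. Among the members r with that mean was 0.979 for BRCA1 and FANCD2, 0.982 for BRIP1, 0.955 for FANCI, 0.637 for FANCA and −0.940 for RAD51C.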

How the data were processed

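RNA of U2OS cells was prepared with the TruSeq Stranded mRNA kit, mapped by the authors to hg19 with STAR 2.5.2b and analysed with rMATS, whose version is not given in the sources used here. The 10 event tables (5 event types in 2 fractions) hold, in each deposited cell, whole-number read counts of the 2 libraries of a group joined by a comma, without a replicate number, beside effective lengths. The authors' condition means of the deposited expression table (RSEM 1.2.25, GENCODE 19 and EBSeq) are normalized expression values. Its posterior probabilities and fold changes, the rMATS p-values, FDR and level differences, and 20 columns of inclusion levels per library were not used.

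Abundance was tested with limma 3.58.1 in R 4.3.3 on log2(abundance + 0.01) in genes averaging 20 event reads or more per library, after scaling by median ratios, so that differences of low genes are understated. Events were tested with a quasi-binomial model whose dispersion was moderated with limma squeezeVar by event type with a floor of 1. The prior outweighed each event's own spread, so p-values rest on the spread of all events. Both used Benjamini-Hochberg adjustment over all genes, or all events of a type, at 0.05. Exon use was tested with limma voom and diffSplice on exons with a mean of at least 10 inclusion reads in genes with at least 3 such exons. All tests are two-sided, and all were tested on simulated data. With 2 libraries a group, precision is set mainly by their number.

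Members and lists were chosen with earlier results of these data known. Named events are the distinct segments past the threshold in each member or, where none passed, the one with the smallest p among those with a mean of at least 10 reads of the rarer form; BRIP1 exon 5, the BRCA1 exon 10 donor, PALB2 exon 12 and the FANCI intron were chosen after their values were seen. From each other list the 3 genes with the largest changes past the threshold in each direction are named, together with some that did not pass and the 5 genes most like the members. Alternatives were other pseudocounts, filters, scalings, event sets and dispersion rules, and each library left out. Exon numbers and sequence were read from GENCODE 44 and the GRCh37 genome, the same build as hg19.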

Additional observations from a re-analysis of the deposited data

How the results depend on the processing

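No paired analysis was possible because the cells of the tables carry no replicate number. Over 8 alternatives between 4 and 7 members fell in whole cells and 3 to 4 in the cytoplasm, and RAD51C rose in each. With one library left out, 1 to 7 members fell and 0 to 1 rose in whole cells, and 3 to 4 fell and 1 rose in the cytoplasm. Without a read filter BRIP1 and FANCD2 missed the threshold in whole cells (limma adjusted p = 0.0522 and 0.0507), and BRIP1 also in the cytoplasm (limma adjusted p = 0.052). All genes called then fell to 830 lower and 781 higher in whole cells and 781 and 776 in the cytoplasm, from 1328 and 1283, and 1450 and 1392. FANCA in whole cells turned to −0.01 with scaling by totals and ranged from −0.01 to 0.07 with one library left out, the FANCI interaction to −0.04 with skipped exon events only, and the log odds of BRIP1 exon 5 in the cytoplasm ranged from −0.38, without the second CHERP library, to 1.39 with one library left out. The cause of these changes was not tested.

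For the lists, a pseudocount of 0.1 gave 1 higher damage signalling gene in each fraction, the limma trend gave 6 lower and 2 higher in whole cells and 1 higher in the cytoplasm, and no read filter gave 1 higher in the cytoplasm and 1 lower end joining gene in each fraction. A filter of 50 reads left 9 lower other Fanconi and recombination genes in the cytoplasm. With one library left out, lower genes in whole cells numbered 3 to 14 for other Fanconi and recombination, 0 to 2 for end joining, 9 to 18 for G1/S and 6 to 20 for G2/M, with 0 to 1 higher damage signalling genes. In the cytoplasm lower genes numbered 1 to 2 for end joining, with 0 to 1 higher, and 11 to 15 for G2/M.

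The member events called in whole cells numbered 0 with limma on log2 odds and 1 to 2 with one library left out, and 1 in the cytoplasm with the dispersion from events whose rarer form had 10 reads or more. Member exons called numbered 1 with a minimum of 50 reads, 4 without voom weights and 0 to 3 with one library left out in whole cells, and 1 without voom weights and 0 to 2 in the cytoplasm. All exons called numbered 252 in whole cells as reported, 143 with that minimum and 620 without weights, and 95, 43 and 171 in the cytoplasm. Member events had a median of 91.1 reads per library in whole cells and 15.9 in the cytoplasm, and the size of difference that this depth could show was not tested.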
